A study of Homo sapiens with 16 samples.

Results

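Gene expression in RPMI8226 myeloma cells made to overexpress Mcl1 was compared with that in parental RPMI8226 cells, across all genes of the deposited table. The study sequenced RNA from 16 libraries of human myeloma lines, and 8 of them enter this comparison, 4 of each background. They were chosen by their labels: RPMI8226 overexpressing Mcl1 transfected with Vec (the vector pLK0.1 with no hairpin), with an shRNA against Gapdh as a control, with an shRNA against CD28 or with an shRNA against CD86, and parental RPMI8226 with the same 4. There is 1 library for each combination, so each Mcl1 library was paired with the parental library of the same shRNA, and the 4 pairs stand as replicates. Nothing in the labels says that the libraries of a background came from separate cultures, so the p-values below measure the spread between these libraries, which may be partly technical.

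RPMI8226 is a human plasma cell myeloma line. The Mcl1 background is a single derived line, so overexpression cannot be told apart from anything else that differs between a derived line and its parent, such as selection, passage or subclone. No source used here gives the promoter, species or UTRs of the Mcl1 construct. The remaining 8 libraries, of the unrelated myeloma lines KMS18 and MM.1s with the same 4 shRNA treatments, give values beside those of the 2 RPMI8226 backgrounds, a comparison of KMS18 with MM.1s for scale, and an alternative fit over all 16 libraries.

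MCL1 is an anti-apoptotic member of the BCL2 family. Its protein sits in the outer mitochondrial membrane and holds the pro-apoptotic effectors BAX and BAK1, and BH3-only proteins such as BIM (BCL2L11), in check. BH3-only proteins of the NOXA type (PMAIP1) bind it in turn and free the effectors. Plasma cells and most myeloma lines depend on MCL1 for survival, and its messenger RNA and protein are both short-lived.

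MCL1 itself was higher in the Mcl1 line with every shRNA. The Mcl1 line had 127, 131, 168 and 173 FPKM (reads scaled to exon length and library size) with Vec, Gapdh, CD28 and CD86 shRNA, against 51.2, 54.5, 62.7 and 49.6 FPKM in parental cells in the same order, which is the order of the 4 values throughout. The groups did not overlap, and the ratio of Mcl1 line to parental was 2.47, 2.41, 2.67 and 3.49 in the 4 pairs (log2 difference 1.43 ± 0.085 SE, adjusted p = 4.00e-05 by limma with Benjamini-Hochberg adjustment over all tested genes). An exact two-sided sign-flip permutation over the 4 pairs gave a p of 1 in 8, the smallest that 4 pairs allow. All other adjusted p-values below come from the same limma fit on log2(FPKM + 1), where 0.05 is the threshold and a fold understates the change of low genes. MM.1s averaged 128 FPKM and KMS18 93.1 FPKM, so every Mcl1 library lay above the KMS18 mean and every parental one below it. The deposited table counts MCL1 over 4085 bases of exon, whereas its coding sequence is 1050 bases long (GENCODE 29); if the construct holds only coding sequence, or is not human, FPKM may understate the added transcript, and with it the ratios above. Of the 20 tested genes nearest to MCL1 on chromosome 1, 10 on each side, 7 were called higher by limma and 0 lower (1 lower at an unadjusted p under 0.05), against 19.5% higher and 14.9% lower among all tested genes, with differences of -0.22 to 1.98 on the log2 scale and a median of 0.070. The highest was PLEKHO1, at 23.4, 25.2, 26.1 and 23.1 FPKM in the Mcl1 line and 6.05, 4.58, 6.07 and 5.29 FPKM in parental cells.

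SDC1 (CD138), the surface marker of plasma cells, stood at 74.3, 89.6, 73.7 and 39.0 FPKM in the Mcl1 line and 65.5, 68.7, 60.5 and 35.8 FPKM in parental cells, and IRF4 at 31.2 to 50.9 and 29.5 to 38.7 FPKM. Library totals recovered from the FPKM steps were 4690942 to 6317652 reads in the Mcl1 line and 5607430 to 7172403 in parental cells, mates of a pair counted separately. The 5 T cell markers summed to 0.850 to 1.97 FPKM in the Mcl1 line and 1.22 to 2.56 FPKM in parental cells, with CD3D, CD3G and CD2 at 0 in all 8 libraries, and the 5 stromal markers to 0.320 to 0.755 and 0.329 to 0.714 FPKM. The 5 myeloid markers summed to 75.05 to 88.9 FPKM in the Mcl1 line and 41.6 to 48.8 FPKM in parental cells; that sum is almost all CD68, with 1.19 to 3.54 and 0 to 0.0916 FPKM of ITGAM, while LYZ, CD14 and CSF1R stood at 0.412 FPKM or less in all 8. Of the erythroid markers, HBB was at 0 and HBA1 had 28.6, 26.3, 26.6 and 18.1 FPKM in the Mcl1 line and 17.4, 9.43, 15.5 and 12.1 FPKM in parental cells. The part of other cell types in the results was not tested.

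The other pro-survival family members did not pass the test. BCL2L1 (BCL-XL) had 89.6, 91.0, 49.8 and 95.7 FPKM in the Mcl1 line and 84.2, 88.6, 61.9 and 92.4 FPKM in parental cells, so the groups overlapped and the level was low with CD28 shRNA in both (log2 difference -0.033 ± 0.069 SE, adjusted p = 0.747). BCL2 had 19.0, 17.7, 23.7 and 10.8 FPKM in the Mcl1 line and 15.2, 16.2, 19.7 and 11.4 FPKM in parental cells (log2 difference 0.15 ± 0.077 SE, adjusted p = 0.18). BCL2L2 stood at 3.10 to 4.21 FPKM in the Mcl1 line and 3.94 to 4.27 FPKM in parental cells, and BCL2A1 and BCL2L10 were at or near 0 in both and were not tested. None of these 3 was called in either direction, at an unadjusted p under 0.05 in the limma fit or at the adjusted threshold under any alternative fit, limma-voom on recovered reads included.

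Among the pro-apoptotic relatives, 5 of 12 tested members were higher in the Mcl1 line and 1 was lower. These are 41.7% and 8.33%, against 19.5% higher and 14.9% lower among all tested genes. PMAIP1 (NOXA), which binds MCL1, was at 27.4, 19.0, 28.5 and 29.7 FPKM in the Mcl1 line and 13.4, 11.7, 13.8 and 14.9 FPKM in parental cells, with no overlap (log2 difference 0.89 ± 0.074 SE, adjusted p = 0.000177). BMF, a BH3-only protein that binds pro-survival members, was the 1 that fell, to 9.81, 7.23, 8.39 and 6.46 FPKM in the Mcl1 line, against 15.6, 14.6, 14.03 and 14.2 FPKM in parental cells (log2 difference -0.81 ± 0.089 SE, adjusted p = 0.000571). The groups were apart for both. BBC3 (PUMA) differed by 0.47 ± 0.080 SE, BNIP3 by 0.54 ± 0.12, BID by 0.28 ± 0.083 and BCL2L11 by 0.20 ± 0.057 on the log2 scale, with adjusted p of 0.00373, 0.0116, 0.0344 and 0.0329. The effectors BAX and BAK1 did not pass (56.9 to 66.5 and 19.0 to 24.2 FPKM in the Mcl1 line, 56.7 to 73.2 and 19.8 to 24.3 FPKM in parental cells). The count of 5 higher was 3 after rescaling by the median of ratios, 2 without the shRNA term, and between 2 and 5 with each pair left out; BID and BCL2L11 each lost the call without the Vec, the Gapdh or the CD86 pair, and BNIP3 without the Vec pair.

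**Figure D1:**
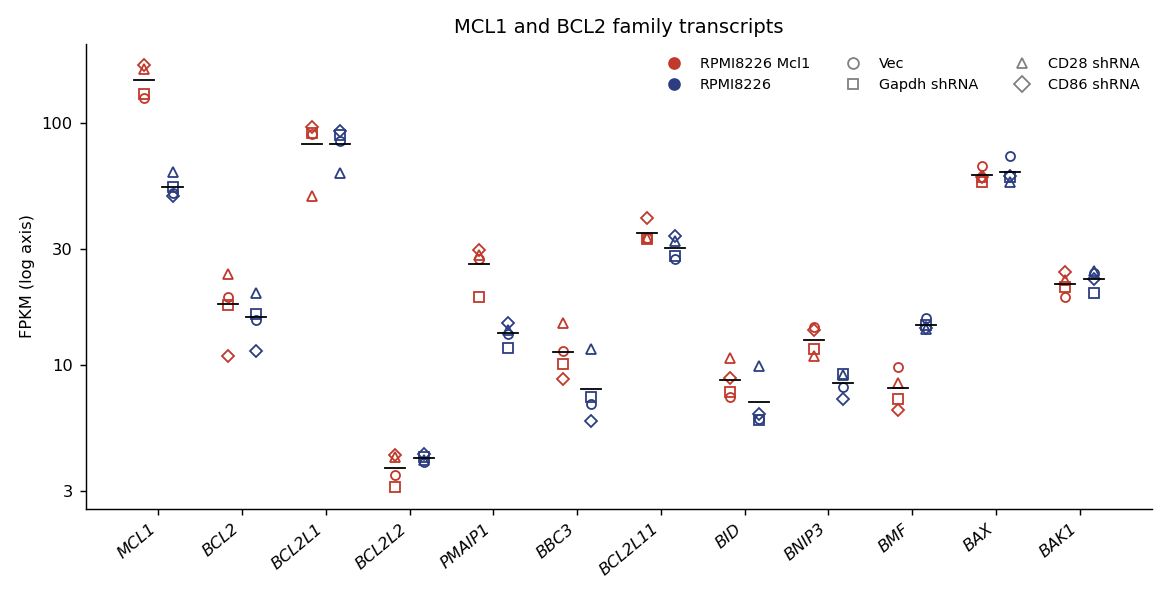
FPKM on a log axis of MCL1, 3 other pro-survival and 8 pro-apoptotic BCL2 family genes in each of the 4 RPMI8226 Mcl1 libraries (left, red) and 4 RPMI8226 libraries (right, blue) per gene; marker shapes are the shRNAs and bars the means. The groups of MCL1, PMAIP1, BNIP3 and BMF do not overlap, while those of BCL2, BCL2L1, BAX and BAK1 do.

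In a list drawn up for regulators of MCL1 protein turnover, 9 transcripts were tested, 1 was higher and 1 lower (11.1% each). Both shares lay below those of all tested genes (19.5% higher, 14.9% lower). Whether the listed genes, RNF144B included, act on MCL1 in these cells was not tested. USP13, a deubiquitinase, was higher at 7.85 to 12.04 FPKM in the Mcl1 line and 5.62 to 8.73 FPKM in parental cells (log2 difference 0.40 ± 0.070 SE, adjusted p = 0.00428). RNF144B, an E3 ubiquitin ligase, fell to 3.14, 3.07, 3.22 and 3.36 FPKM in the Mcl1 line, against 14.6, 18.1, 10.7 and 11.96 FPKM in parental cells (log2 difference -1.80 ± 0.13 SE, adjusted p = 0.000103). Among 17 caspases, APAF1 and inhibitors of apoptosis, 2 were higher and 2 lower (11.8% each), below the same shares of all tested genes. BIRC3 (cIAP2) was higher, at 3.94, 3.97, 5.03 and 5.65 FPKM in the Mcl1 line and 0.928, 0.532, 1.60 and 1.73 FPKM in parental cells. The 2 lower ones were CASP10 (-0.57) and CASP8 (-0.23). Of 7 tested death receptor genes and ligands 3 were lower and 0 higher by limma (0 higher also at an unadjusted p under 0.05 and by limma-voom): TNFRSF10D (-0.77), TNFSF10, the ligand TRAIL (-0.55), and TNFRSF10A (-0.34). CASP8 and TNFSF10 lost the call without the Vec, the CD28 or the CD86 pair.

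Beyond MCL1, 3793 of 11024 tested genes (34.4%) differed at the adjusted threshold, 2146 higher in the Mcl1 line (19.5%) and 1647 lower (14.9%). Most differences were small: 3354 of the 3793 were under 1 on the log2 scale. At 1 or more there were 224 higher (2.03%) and 215 lower (1.95%), and at 2 or more 29 higher (0.263%) and 45 lower (0.408%). In 3732 of the 3793 the sign was the same in all 4 pairs, and in 2789 of all tested genes (25.3%) the 4 libraries of one background all lay above the 4 of the other. For scale, the same fit of KMS18 against MM.1s called 7067 of 10957 genes (64.5%), 2419 of them (22.1%) at 1 or more. The count of 3793 fell to 2459 without the shRNA term and to 2335 with only the Vec and Gapdh pairs.

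**Figure D2:**
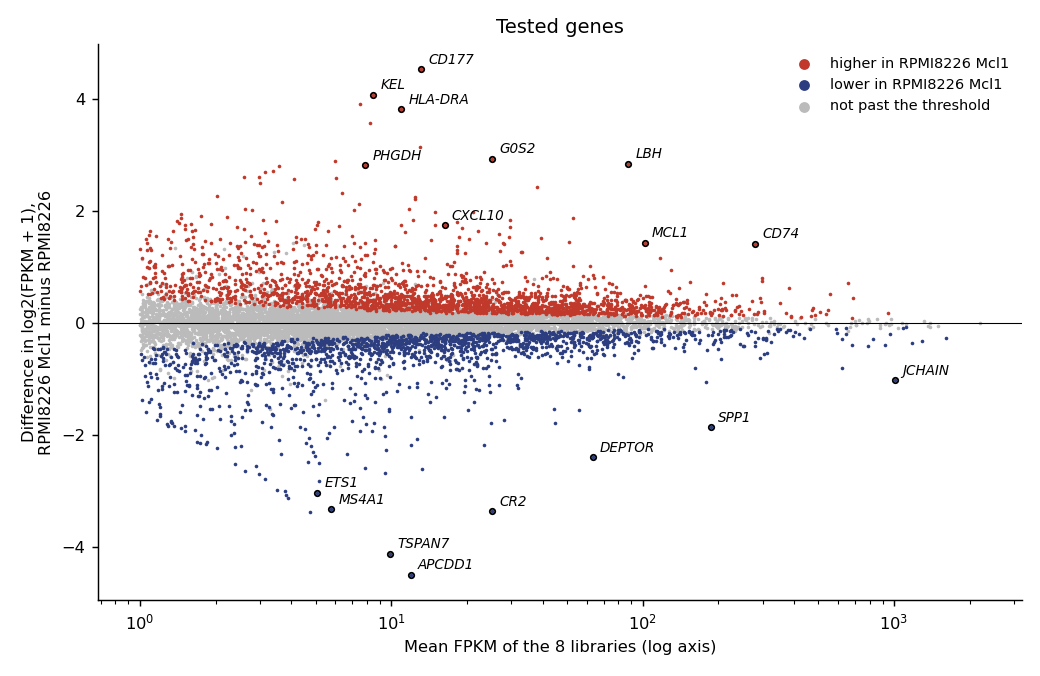
Difference in log2(FPKM + 1), RPMI8226 Mcl1 minus RPMI8226, against the mean FPKM of the 8 libraries on a log axis, 1 point per tested gene, coloured by call. MCL1 lies at 1.43, among higher genes of which CD177 at 4.53 differs most, and APCDD1 at -4.50 marks the other end.

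Among the 12 largest rises were surface and secreted proteins that parental cells, MM.1s and KMS18 hardly expressed. CD177, a surface glycoprotein known from neutrophils, had 29.4, 29.2, 24.0 and 21.9 FPKM in the Mcl1 line and 0.202, 0.231, 0.129 and 0.105 FPKM in parental cells (log2 difference 4.53 ± 0.093 SE, adjusted p = 1.01e-06). KEL, the Kell blood group glycoprotein, had 16.8, 15.9, 16.5 and 18.5 FPKM in the Mcl1 line and 0, 0, 0.140 and 0.114 FPKM in parental cells (log2 difference 4.08 ± 0.097 SE, adjusted p = 1.15e-06). SFRP2, a secreted antagonist of Wnt ligands, had 21.3, 12.7, 11.1 and 14.9 FPKM in the Mcl1 line and 0, 0.161, 0 and 0 FPKM in parental cells (log2 difference 3.91 ± 0.17 SE, adjusted p = 1.12e-05). All 3, with CDC42EP1, an effector of the GTPase CDC42, were at 5 FPKM or more in all 4 Mcl1 libraries and under 0.5 FPKM in all 4 parental ones. In MM.1s and KMS18 none of the 4 passed 0.138 FPKM in any library. A bulk library does not tell more cells with a transcript apart from more RNA per cell.

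The other large rises included genes with a clearly measured level in parental cells. LBH, a transcriptional cofactor, had 174, 195, 80.2 and 167 FPKM in the Mcl1 line and 25.7, 25.8, 9.75 and 22.1 FPKM in parental cells (log2 difference 2.84 ± 0.049 SE, adjusted p = 5.28e-07); the CD28 shRNA library was the lowest of its group in both. G0S2, an inhibitor of adipose triglyceride lipase, had 52.3, 54.1, 30.5 and 44.0 FPKM in the Mcl1 line and 5.79, 5.31, 2.22 and 7.85 FPKM in parental cells (log2 difference 2.93 ± 0.14 SE, adjusted p = 1.86e-05). The groups were apart for both genes. MYO1E (an unconventional myosin, 3.15), HSPB8 (a small heat shock protein, 3.57), PAGE5 (a cancer-testis antigen, 2.89) and RAMP3 (a receptor activity-modifying protein, 2.71) rose too; in parental cells RAMP3, PAGE5 and HSPB8 had 4, 14 and 22 reads over the 4 libraries. HLA-DRA and PHGDH, the other members of the 12, are described with their pathways.

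The 12 largest falls included B cell surface proteins and the transcription factor ETS1. APCDD1, a membrane inhibitor of Wnt signalling, was at 0.124, 0.257, 0 and 0 FPKM in the Mcl1 line and 28.1, 23.8, 22.1 and 21.4 FPKM in parental cells (log2 difference -4.50 ± 0.10 SE, adjusted p = 1.15e-06). TSPAN7, a tetraspanin, was at 0.305, 0.158, 0.205 and 0 FPKM in the Mcl1 line and 19.8, 16.9, 15.7 and 25.9 FPKM in parental cells (log2 difference -4.12 ± 0.16 SE, adjusted p = 7.74e-06). ETS1 was at 0.286, 0.475, 0.308 and 0.201 FPKM in the Mcl1 line and 9.79, 11.2, 8.17 and 10.1 FPKM in parental cells (log2 difference -3.04 ± 0.11 SE, adjusted p = 6.72e-06). These 3 were near absent from every Mcl1 library. TSPAN7 and ETS1 averaged 11.2 and 28.9 FPKM in MM.1s, and APCDD1 was at 0 there.

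Several falls reached 0 reads. IGSF21 had 0 FPKM in each library of the Mcl1 line and 5.70, 8.78, 6.49 and 7.24 FPKM in parental cells, where it had 490 reads in all. KRTAP3-2 had 0 FPKM in each library of the Mcl1 line and 7.23, 8.98, 7.71 and 7.12 FPKM in parental cells, where it had 139 reads in all. CFC1B and CFC1, near-identical copies whose split is uncertain, were both at 0 in the Mcl1 line and at 8.40 to 10.6 and 4.998 to 8.91 FPKM in parental cells. RNF182, a ubiquitin ligase, stood at 0, 0, 0.225 and 0 FPKM in the Mcl1 line and 6.79, 6.82, 7.19 and 9.19 FPKM in parental cells (log2 difference -3.005 ± 0.13 SE, adjusted p = 1.29e-05). NRIP1, a nuclear receptor corepressor, and PGM5 fell by 2.83 and 2.71 on the log2 scale. In all, 8 genes were at 5 FPKM or more in all 4 parental libraries and under 0.5 FPKM in all 4 Mcl1 libraries, against the 4 in the other direction. Those 8 were APCDD1, TSPAN7, MS4A1, ETS1, CFC1B, KRTAP3-2, RNF182 and IGSF21, all at 0.147 FPKM or less in MM.1s and KMS18 but for ETS1 and TSPAN7.

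**Figure D3:**
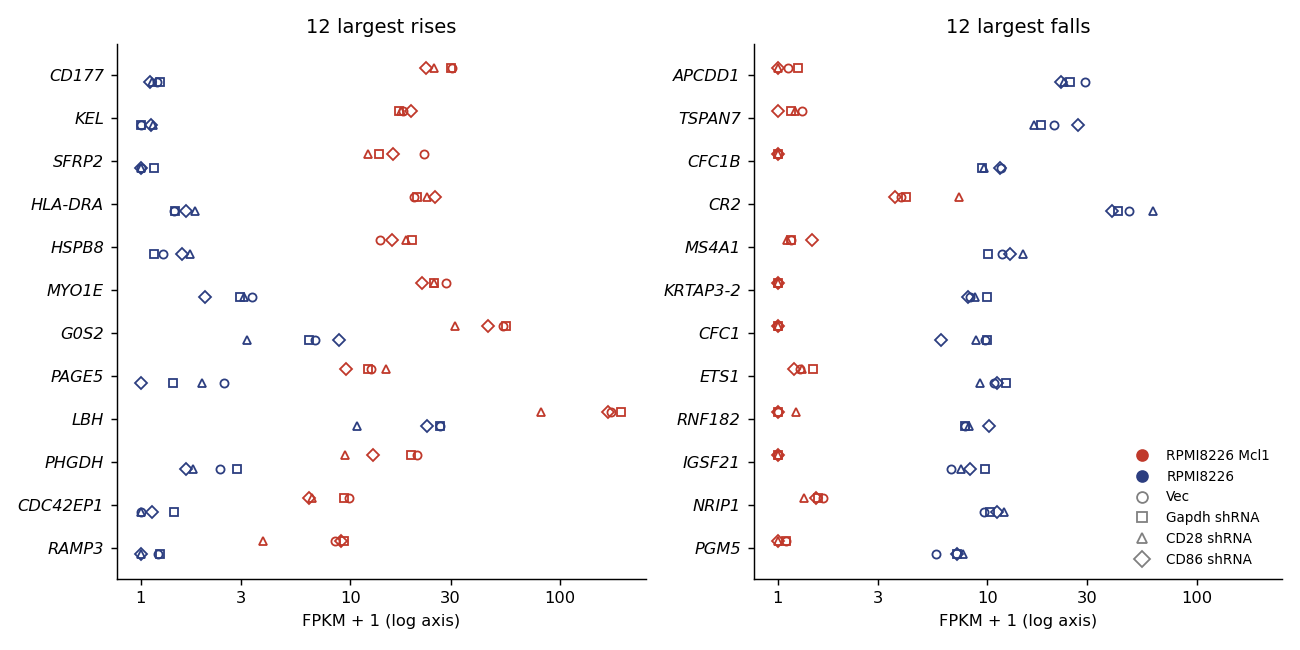
FPKM + 1 on a log axis of the 12 genes with the largest rise and the 12 with the largest fall, with the 4 RPMI8226 Mcl1 libraries (red, upper points) above the 4 RPMI8226 libraries (blue, lower points) and marker shapes for the shRNAs. The groups of each of the 24 genes are apart, and IGSF21, KRTAP3-2, CFC1 and CFC1B stand at 0 FPKM in the Mcl1 line.

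Genes of HLA class II antigen presentation rose in the Mcl1 line. HLA-DRA, the alpha chain of HLA-DR, had 19.2, 19.8, 22.1 and 24.3 FPKM in the Mcl1 line and 0.435, 0.463, 0.815 and 0.649 FPKM in parental cells (log2 difference 3.81 ± 0.088 SE, adjusted p = 1.15e-06). CD74, the invariant chain, had 355, 393, 426 and 454 FPKM in the Mcl1 line and 154, 134, 161 and 161 FPKM in parental cells (log2 difference 1.41 ± 0.056 SE, adjusted p = 7.74e-06). CIITA, the transactivator of class II genes, had 2.09, 1.45, 2.19 and 1.71 FPKM in the Mcl1 line and 0.307, 0.176, 0.524 and 0.321 FPKM in parental cells (log2 difference 1.10 ± 0.13 SE, adjusted p = 0.000835). The groups were apart for all 3, and HLA-DMA, a peptide-loading chain, rose as well (1.61, 1.84, 2.58 and 1.96 against 0.159, 0.182, 0.318 and 0.176 FPKM). These 4 are the tested members of 13 in the list, and HLA-DRA, HLA-DMA and CIITA reached the filter, a mean of at least 1 FPKM over the 8 libraries, only through the Mcl1 line. The other 9 did not reach it. Of those, HLA-DPA1 stood at 1.17, 1.04, 0.881 and 1.08 FPKM in the Mcl1 line and 0.0180, 0.0206, 0 and 0 FPKM in parental cells, and HLA-DRB1 at 0.691, 0.757, 0.775 and 0.946 against 0, 0.0387, 0 and 0 FPKM. KMS18 averaged 65.1 FPKM of HLA-DRA and MM.1s 13.8, so the Mcl1 line lay between the means of the 2 lines. The deposited table counts HLA-DRA over 8968 bases of exon and HLA-DMA over 14029, and FPKM divides by that length. A low FPKM or a missed filter therefore need not mean few reads. HLA-DMA had 143 to 170 reads per Mcl1 library and 16 to 25 per parental one, and HLA-DRA 26 to 41 per parental one. With no filter on low values 10 members were called higher. HLA class I presentation showed 3 higher and 1 lower of 15 (20% and 6.67%), against 19.5% and 14.9% of all tested genes.

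Class II promoters carry a Y box, which binds NF-Y. The 8 letters CTGATTGG, searched on both strands in the 250 bases before the start, occurred in 3.98% of 27305 RefSeq promoters (GRCh38.p14) and in 1 of the 2 class II members with a listed promoter, HLA-DMA. It is shown here at chr6:32953162-32953189, minus strand, with the match in capitals.
HLA-DMA: ctacgcttctCTGATTGGtttagacaaa

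B cell genes moved in both directions. Of 16 tested, 8 were higher and 3 lower (50% and 18.75%), against 19.5% and 14.9% of all tested genes. The lower ones include MS4A1 (CD20), at 0.154, 0.160, 0.103 and 0.451 FPKM in the Mcl1 line and 10.7, 9.08, 13.7 and 11.8 FPKM in parental cells (log2 difference -3.33 ± 0.13 SE, adjusted p = 7.74e-06). CR2 (CD21, the complement receptor) fell to 2.88, 3.07, 6.34 and 2.63 FPKM in the Mcl1 line, against 46.3, 40.8, 60.6 and 38.3 FPKM in parental cells (log2 difference -3.37 ± 0.093 SE, adjusted p = 2.20e-06), and was highest with CD28 shRNA in both. FCER2 (CD23, the low-affinity IgE receptor) rose instead, to 49.2, 47.9, 42.1 and 49.7 FPKM in the Mcl1 line, against 18.9, 18.3, 18.9 and 20.3 FPKM in parental cells (log2 difference 1.26 ± 0.057 SE, adjusted p = 1.40e-05). The kinase BTK (1.14), the inhibitory receptor CD72 (1.503) and the transcription factor IRF8 (0.85) rose too, with no overlap between groups. CD72 averaged 0.612 FPKM in parental cells and reached the filter only through the Mcl1 line. The B cell identity genes PAX5, CD22 and EBF1 were at 0.171 FPKM or less in every library of both backgrounds.

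More genes of the interferon response list fell than rose. Type I interferons act through STAT2 and IRF9, among others, on promoters with an interferon-stimulated response element. Of 26 tested list members, 14 were lower and 2 higher, with a median difference of -0.54 on the log2 scale (0.026 over all tested genes). IFI6 had 29.3, 21.0, 34.2 and 23.3 FPKM in the Mcl1 line and 76.0, 62.8, 140.0 and 59.9 FPKM in parental cells (log2 difference -1.55 ± 0.11 SE, adjusted p = 8.23e-05). ISG15, a ubiquitin-like modifier, had 18.3, 14.8, 21.1 and 17.9 FPKM in the Mcl1 line and 31.8, 35.5, 85.2 and 30.6 FPKM in parental cells (log2 difference -1.17 ± 0.19 SE, adjusted p = 0.00314). Both groups were apart, and within each background the CD28 shRNA library was the highest. OAS2, an antiviral synthetase, had 1.23, 1.07, 4.15 and 0.542 FPKM in the Mcl1 line and 3.93, 3.78, 14.02 and 2.73 FPKM in parental cells (log2 difference -1.29 ± 0.11 SE, adjusted p = 0.0002), so its groups overlapped through the CD28 libraries although each pair fell. MX1, IFIT3, OAS1 and XAF1 also overlapped, the CD28 shRNA library of the Mcl1 line lying above at least 1 parental library, with differences of -0.94, -0.78, -0.65 and -0.76. STAT2 (-0.61) fell as well. IFI27 fell by 1.25 with 2 reads in each Mcl1 library; the difference was -0.72 without the CD28 pair, and the call was lost without the Vec or the Gapdh pair and without the shRNA term. Without the shRNA term 3 members were called lower, and leaving out each pair gave 10 to 12. IFI6 and ISG15 lie in the lower stretches of chromosome 1 described below, and outside the stretches 12 of 24 members were lower. IFITM1, a membrane restriction factor, went the other way, at 34.0, 32.1, 29.7 and 25.7 FPKM in the Mcl1 line and 8.94, 12.5, 13.4 and 6.90 FPKM in parental cells (log2 difference 1.49 ± 0.13 SE, adjusted p = 0.000182). SAMD9L was the other higher member, and CXCL10, described with the chemokines below, rose by 1.74.

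The core of an interferon-stimulated response element holds GAAA, 2 bases of any kind and GAAA again. On either strand this core occurred in the 250 bases before the start of 3.07% of 27305 RefSeq promoters (GRCh38.p14), and in 12 of the 19 tested members with a listed promoter. It was found in 6 of the 11 lower members, in 5 of the 6 with no call and in 1 of the 2 higher ones. With only 2 higher members, whether it separates members by direction cannot be told. The matches nearest the start of 4 genes that fell and of IFITM1, which rose, are shown with 10 bases on each side and the match in capitals; that of IFIT3 is on the other strand. They lie at chr1:27672266-27672295 (minus), chr1:1013380-1013409 (plus), chr14:94110631-94110660 (plus), chr10:89327865-89327894 (plus) and chr11:313990-314019 (plus), in the order listed.
IFI6: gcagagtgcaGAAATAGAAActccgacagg
ISG15: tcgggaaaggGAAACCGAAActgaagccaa
IFI27: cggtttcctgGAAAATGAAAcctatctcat
IFIT3: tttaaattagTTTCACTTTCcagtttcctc
IFITM1: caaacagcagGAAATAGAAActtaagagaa

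NF-kB genes rose. The NF-kB family of transcription factors is held in the cytoplasm by IkB proteins and is active in many myelomas. Of 23 tested members 13 were higher and 1 lower, with a median of 0.38. NFKB2, whose p100 product is processed in the non-canonical pathway, had 18.6, 18.9, 34.6 and 19.1 FPKM in the Mcl1 line and 7.42, 9.12, 16.6 and 9.09 FPKM in parental cells (log2 difference 1.05 ± 0.068 SE, adjusted p = 5.92e-05). NFKBIA, which encodes IkB-alpha, had 26.4, 21.8, 25.7 and 24.7 FPKM in the Mcl1 line and 13.6, 13.1, 12.6 and 13.3 FPKM in parental cells (log2 difference 0.86 ± 0.065 SE, adjusted p = 0.000121). Both sets were apart. CCL5 (1.63), BIRC3 (1.39), BCL3 (0.88) and RELB (0.40) rose too, and TNFAIP8 (-1.12) fell. The number higher was 9 to 13 over the alternatives.

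Chemokine genes showed 6 higher and 3 lower of 10 tested, from 24 in the list, and 5 to 9 higher over the alternatives. CXCL10 had 19.5, 17.8, 48.2 and 15.9 FPKM in the Mcl1 line and 5.73, 3.42, 15.5 and 4.19 FPKM in parental cells (log2 difference 1.74 ± 0.098 SE, adjusted p = 3.07e-05). The CD28 shRNA library was the highest of each group. CXCR4, the receptor for CXCL12 that retains plasma cells in marrow, had 43.0, 37.3, 36.9 and 47.1 FPKM in the Mcl1 line and 15.9, 12.1, 13.2 and 18.0 FPKM in parental cells (log2 difference 1.42 ± 0.057 SE, adjusted p = 7.74e-06). CX3CR1 fell to 104 to 134 FPKM in the Mcl1 line, against 155 to 188 FPKM in parental cells. Among 23 cytokine receptor and JAK-STAT genes 12 were higher and 3 lower; IL10RA (1.15), IL2RG (1.06) and STAT5A (0.90) rose, and PIM1 (-0.44) fell.

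Transcripts of the amino acid response rose, with 17 of 26 tested members higher and 0 lower by limma (0 lower also at an unadjusted p under 0.05, 1 lower by limma-voom). The median was 0.43, and 13 to 19 were higher over the alternatives. ATF4 is the transcription factor that drives serine synthesis, amino acid transport and part of the stress response. PHGDH, the first enzyme of serine synthesis, had 19.8, 18.5, 8.46 and 11.8 FPKM in the Mcl1 line and 1.39, 1.87, 0.782 and 0.637 FPKM in parental cells (log2 difference 2.81 ± 0.13 SE, adjusted p = 1.40e-05). PSAT1, the next enzyme, had 74.7, 63.7, 45.4 and 52.3 FPKM in the Mcl1 line and 20.8, 22.5, 16.1 and 20.1 FPKM in parental cells (log2 difference 1.51 ± 0.078 SE, adjusted p = 2.03e-05). ASNS, asparagine synthetase, had 84.8, 63.3, 45.6 and 52.3 FPKM in the Mcl1 line and 43.0, 37.95, 34.0 and 38.7 FPKM in parental cells (log2 difference 0.63 ± 0.094 SE, adjusted p = 0.00224). All 3 groups were apart. NUPR1 (1.43), CHAC1 (1.08), DDIT3 (CHOP, 0.74) and the transporter SLC7A5 (0.42) rose too.

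Cytosolic heat shock genes rose while endoplasmic reticulum chaperones fell. Of 17 heat shock genes, 12 were higher by limma and 0 lower (2 lower at an unadjusted p under 0.05 and by limma-voom). HSPA8, the constitutive HSC70, had 269.8, 264, 243 and 256 FPKM in the Mcl1 line and 163, 148, 151 and 169 FPKM in parental cells (log2 difference 0.71 ± 0.042 SE, adjusted p = 4.20e-05), and HSPB1 and DNAJB1 each rose by 0.74. Of 26 endoplasmic reticulum chaperone and unfolded protein response genes, 15 were lower and 2 higher (median -0.18). HSPA5 (BiP) had 286, 317, 282 and 239 FPKM in the Mcl1 line and 338, 359, 348 and 302 FPKM in parental cells (log2 difference -0.26 ± 0.034 SE, adjusted p = 0.0012), with an overlap between the Gapdh library of the Mcl1 line and the CD86 library of parental cells. The sensor ERN1 (IRE1) fell to 14.3, 14.1, 12.8 and 9.75 FPKM in the Mcl1 line, against 20.3, 20.4, 21.2 and 19.5 FPKM in parental cells (log2 difference -0.65 ± 0.088 SE, adjusted p = 0.00142). The number lower was 20 after rescaling by the median of ratios and 4 without the shRNA term. Proteasome subunits showed 13 higher and 1 lower of 27, with 8 to 10 higher with a pair left out, 6 without the shRNA term and 4 with only the Vec and Gapdh pairs.

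Of 18 tested plasma cell genes, 11 were lower and 3 higher, and 7 were lower without the shRNA term. The shares were 61.1% lower and 16.7% higher, against 14.9% and 19.5% of all tested genes. JCHAIN, the joining chain of IgA and IgM, had 656, 605, 693 and 717 FPKM in the Mcl1 line and 1384, 1351, 1375 and 1317 FPKM in parental cells (log2 difference -1.02 ± 0.044 SE, adjusted p = 1.12e-05). MZB1, a chaperone of immunoglobulin assembly, had 487, 467, 475 and 369 FPKM in the Mcl1 line and 868, 821, 845 and 633 FPKM in parental cells (log2 difference -0.81 ± 0.024 SE, adjusted p = 2.59e-06). DERL3, of the degradation machinery of the endoplasmic reticulum, had 13.3, 11.1, 8.53 and 6.11 FPKM in the Mcl1 line and 37.5, 36.1, 25.8 and 22.5 FPKM in parental cells (log2 difference -1.57 ± 0.069 SE, adjusted p = 1.29e-05). All 3 groups were apart. TNFRSF17 (BCMA, -0.49) and ELL2 (-1.11) fell too. CD38 (0.70), CADM1 (1.36) and SDC1 (CD138, 0.24) rose. The plasma cell regulators IRF4 (0.20, adjusted p = 0.153), PRDM1 (0.040, adjusted p = 0.768) and XBP1 (-0.12, adjusted p = 0.0705) did not pass. MYC fell slightly, to 326 to 374 FPKM in the Mcl1 line, against 377 to 403 FPKM in parental cells (log2 difference -0.17 ± 0.032 SE, adjusted p = 0.00655).

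MAF, the oncogenic transcription factor that RPMI8226 expresses, was lower in the Mcl1 line, and so were some genes known to follow it. MAF had 190.4, 198, 159.6 and 172 FPKM in the Mcl1 line and 242, 261, 199.8 and 217 FPKM in parental cells (log2 difference -0.35 ± 0.031 SE, adjusted p = 0.000212). DEPTOR, an inhibitor of mTOR, had 20.1, 22.7, 21.1 and 14.4 FPKM in the Mcl1 line and 112, 112, 113 and 90.2 FPKM in parental cells (log2 difference -2.40 ± 0.058 SE, adjusted p = 1.17e-06). SPP1, osteopontin, had 75.7, 80.7, 79.7 and 82.9 FPKM in the Mcl1 line and 303, 313, 266 and 289.5 FPKM in parental cells (log2 difference -1.86 ± 0.050 SE, adjusted p = 1.99e-06). The groups of all 3 were apart. ITGB7 (-0.20) fell and CCND2 did not pass (-0.015, adjusted p = 0.869). In all, 5 of 11 tested MAF-related genes were lower and 2 higher, with 3 to 6 lower and 0 to 2 higher over the alternatives. The shares were 45.5% lower and 18.2% higher, against 14.9% and 19.5% of all tested genes. Whether these changes follow that of MAF was not tested.

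Of 32 genes of G1/S and DNA replication 23 were higher and 1 lower (median 0.28; 15 to 23 higher over the alternatives). RRM2, a subunit of ribonucleotide reductase, had 90.2, 85.9, 74.0 and 105 FPKM in the Mcl1 line and 45.7, 47.5, 45.6 and 61.5 FPKM in parental cells (log2 difference 0.82 ± 0.053 SE, adjusted p = 6.27e-05). MCM6, of the replicative helicase, had 70.3, 64.3, 55.8 and 61.6 FPKM in the Mcl1 line and 49.1, 42.8, 41.0 and 43.9 FPKM in parental cells (log2 difference 0.50 ± 0.044 SE, adjusted p = 0.00022). Both groups were apart. G2/M genes showed 13 higher and 5 lower of 30 (43.3% and 16.7%), against 19.5% and 14.9% of all tested genes. The G2/M counts were 4 higher and 5 lower without the shRNA term, and 7 higher with all 16 libraries in one fit. UBE2C, a ubiquitin-conjugating enzyme of the anaphase-promoting complex, fell to 0, 0.411, 0.799 and 0.232 FPKM in the Mcl1 line, against 4.35, 3.79, 6.46 and 2.91 FPKM in parental cells (log2 difference -1.98 ± 0.16 SE, adjusted p = 0.000138). MM.1s averaged 75.5 FPKM and KMS18 35.6 FPKM of UBE2C, so both RPMI8226 backgrounds were far lower. Among p53 targets 6 were higher and 8 lower of 24 (3 and 4 without the shRNA term), with BTG2 (-0.96) falling and GADD45A (1.01) rising. The p53 shares were 25% higher, near the 19.5% of all tested genes, and 33.3% lower, against 14.9%. The inhibitor CDKN1B (p27) fell by 0.63 on the log2 scale, and RB1 rose by 0.39.

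Cholesterol and fatty acid synthesis genes showed 12 lower and 1 higher of 30, with SCD (-0.43) and SREBF2 (-0.29) lower, and 3 lower without the shRNA term. Glycolysis genes showed 9 higher and 4 lower of 18; HK2 (0.48) and LDHA (0.37) rose, and the glucose transporter SLC2A3 (-1.46) fell. Ribosomal protein genes showed 10 lower and 1 higher of 34, 17 lower after rescaling and 6 without the shRNA term. In both lists part of the lower genes lie in the chromosome stretches described below: 3 of the 4 in glycolysis and 4 of the 10 ribosomal proteins. Mitochondrial fission and fusion genes, on which MCL1 is known to act, showed 2 higher and 2 lower of 12 (16.7% each). Respiratory chain subunits showed 2 higher and 5 lower of 25 (8% and 20%), and 8 lower after rescaling. Among all tested genes 19.5% were higher and 14.9% lower.

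In the MAPK list, DUSP5, a nuclear ERK phosphatase, fell to 10.1, 8.19, 8.10 and 4.34 FPKM in the Mcl1 line, against 46.6, 48.0, 39.6 and 21.3 FPKM in parental cells (log2 difference -2.18 ± 0.075 SE, adjusted p = 5.55e-06), and 7 of 20 members were higher and 5 lower (4 and 5 without the shRNA term). In the TGF-beta and BMP list 8 of 19 were higher and 2 lower (5 and 2 without the shRNA term); ID1 (1.42) and SMAD3 (1.38) rose. In the Wnt list 6 of 11 were higher and 3 lower, with 3 to 5 higher when a pair was left out. Among adhesion genes CDH2 (N-cadherin) fell to 2.02, 2.94, 3.67 and 3.57 FPKM in the Mcl1 line, against 24.4, 21.3, 24.2 and 24.5 FPKM in parental cells (log2 difference -2.62 ± 0.12 SE, adjusted p = 1.34e-05), while 10 of 20 rose and 5 fell. Integrins showed 3 higher and 3 lower of 10 tested, from 22 in the list, and 1 to 6 higher over the alternatives. ITGAM rose (1.57) and ITGAL fell (-1.10). ITGAM averaged 0.0229 FPKM in parental cells and reached the filter only through the Mcl1 line. Cancer-testis antigens split as well, with PAGE5 and GAGE12J (1.48) higher and XAGE1B (-1.81), MAGEA12 (-1.67) and CTAG2 (-1.06) lower. The shares called higher and lower were 35% and 25% in the MAPK list and 42.1% and 10.5% in the TGF-beta and BMP list. They were 54.5% and 27.3% in the Wnt list, 50% and 25% among adhesion genes and 30% each among integrins. Those of all tested genes were 19.5% and 14.9%.

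Other lists held both directions. Hypoxia-inducible genes showed 7 higher and 4 lower of 15, with CA9, carbonic anhydrase IX, higher (1.23) and EGLN3, a prolyl hydroxylase, lower (-1.17). Autophagy and lysosome genes showed 7 higher and 4 lower of 26 (26.9% and 15.4%). WIPI1 (-1.09) and the kinase ULK1 (-0.73) were lower. Drug efflux and glutathione genes showed 6 higher and 4 lower of 17, with the transporter ABCC1 (MRP1) higher (0.72). MYC targets and ribosome biogenesis showed 10 higher and 3 lower of 31, the citric acid cycle 4 higher and 2 lower of 13, and the Notch list 1 higher, NOTCH1 (0.73), and 2 lower of 12. Without the shRNA term the numbers higher in limma were 2 for drug efflux and glutathione, 4 for MYC targets and 0 for the citric acid cycle. Of 8 tested ligands and shields for T and NK cells, CD70 (1.44) and CD59, an inhibitor of complement (0.47), were higher (25%). Of 15 genes of calcium handling 3 were higher (20%), and in the Notch list 8.33% were. Among all tested genes 19.5% were higher and 14.9% lower.

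**Figure D4:**
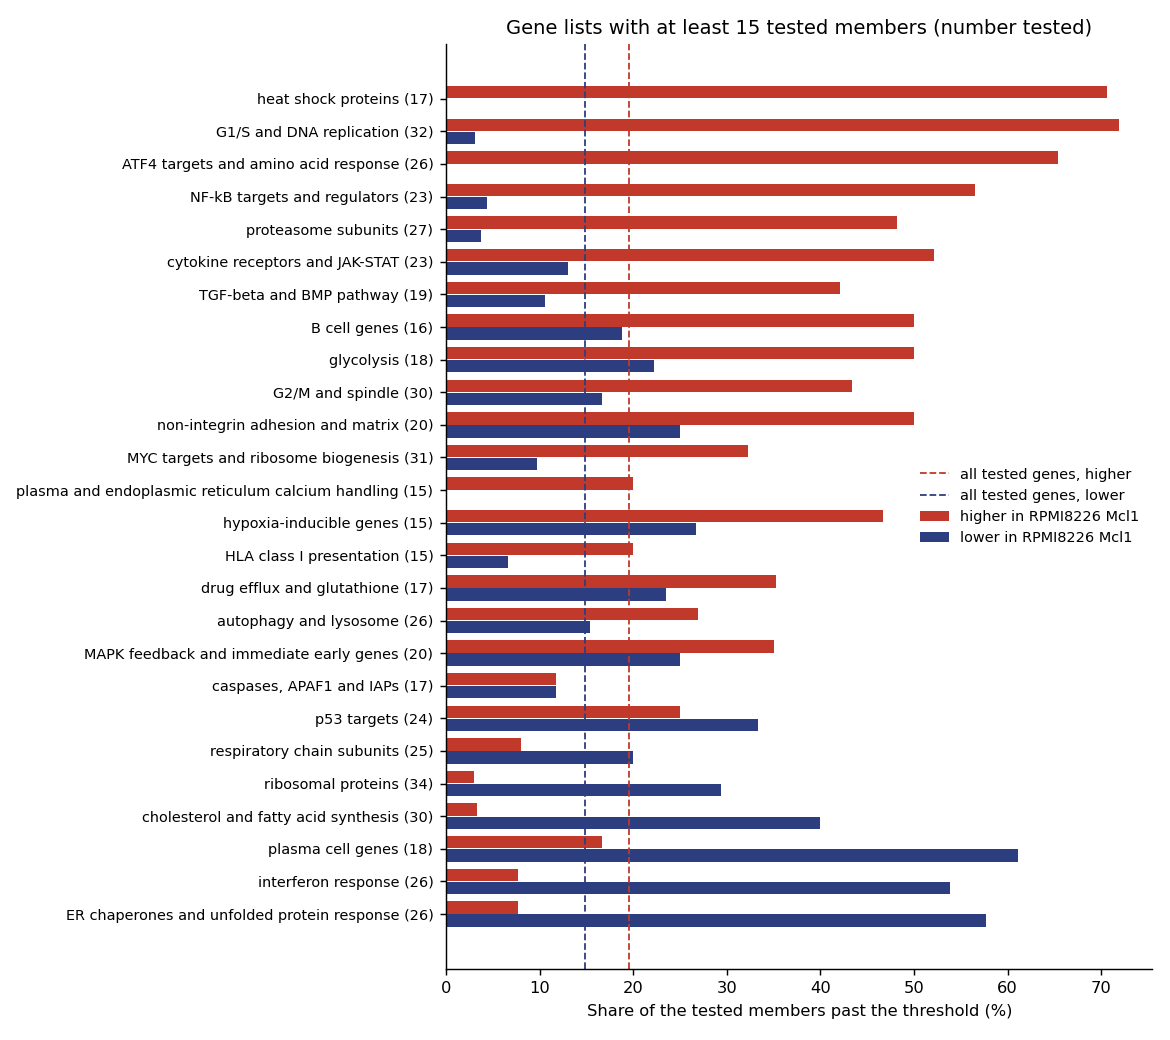
Share of tested members called higher (red) or lower (blue) in RPMI8226 Mcl1 than in RPMI8226 for each gene list with at least 15 tested members (number in brackets), with dashed lines at the shares among all tested genes (19.5% higher, 14.9% lower). Heat shock, G1/S, ATF4 and NF-kB lists lie farthest above the red line, followed closely by others such as cytokine receptors at 52.2%. The plasma cell, endoplasmic reticulum and interferon lists lie farthest above the blue line, followed by cholesterol and fatty acid synthesis at 40%.

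Of the shRNA targets, CD28 and GAPDH were lower in the Mcl1 line. CD28, a T cell costimulatory receptor that myeloma cells also carry, had 52.9, 49.7, 35.7 and 52.8 FPKM in the Mcl1 line and 70.6, 77.1, 56.0 and 69.9 FPKM in parental cells, with no overlap (log2 difference -0.52 ± 0.057 SE, adjusted p = 0.000584). CD86, its ligand, had 5.80, 5.46, 12.3 and 2.86 FPKM in the Mcl1 line and 6.92, 6.51, 11.4 and 5.28 FPKM in parental cells and did not pass (log2 difference -0.26 ± 0.13 SE, adjusted p = 0.164); it was highest with CD28 shRNA in both. GAPDH had 985, 209.5, 1100 and 1054 FPKM in the Mcl1 line and 1172, 402, 1265 and 1192 FPKM in parental cells. Its groups overlapped (log2 difference -0.39 ± 0.12 SE, adjusted p = 0.0392). The GAPDH difference was -0.25, -0.94, -0.20 and -0.18 in the 4 pairs, largest with its own shRNA. These fits include the libraries with the gene's own shRNA. With its own shRNA, CD28 stood at 67.5% of Vec in the Mcl1 line and 79.3% in parental cells, CD86 at 49.4% and 76.3%, and GAPDH at 21.3% and 34.3%. With 1 library per combination, whether a knockdown differed between backgrounds was not tested. Of the 5 tested CD28 and B7 family genes 3 were higher. CD276 (B7-H3) rose to 8.63, 11.997, 14.05 and 9.45 FPKM in the Mcl1 line, against 0.700, 1.31, 1.18 and 0.796 FPKM in parental cells (log2 difference 2.58 ± 0.098 SE, adjusted p = 7.38e-06). Its parental mean of 0.997 FPKM lay just under the filter. PDCD1 (PD-1) and ICOSLG rose by 0.61 and 0.51.

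Small differences of one sign ran along whole chromosome stretches. Genes were placed by Entrez ID in the RefSeq annotation (GRCh38.p14) for order only, and stretches were taken from the Vec pair alone, as runs of at least 62 tested genes where the running median of 31 neighbours was past 0.15 on the log2 scale, with gaps of up to 15 genes; these settings were chosen after the data were seen. On chromosome 5 the 316 tested genes between WDR41 and TRIM52-AS1 had a median of -0.30 in the Vec pair that defined it, and of -0.29, -0.31 and -0.31 in the Gapdh, CD28 and CD86 pairs, which the choice did not use. Of these genes 175 were called lower (55.4%) and 13 higher, counts that include the Vec pair. Members at 5 FPKM or more in parental cells had a median ratio of 78.4% of parental. On chromosome 1 the 66 genes of KLHL17 to KLHL21 had medians of -0.17, -0.18 and -0.21 in the 3 pairs not used, and the 231 of FBXO2 to MACF1 had -0.20, -0.20 and -0.22. On chromosome 12 the 85 genes of TEAD4 to RECQL, GAPDH and CDKN1B among them, had -0.24, -0.32 and -0.22. These 4 stretches held 698 genes, 6.33% of those tested, and 347 of the 1647 lower calls (21.1%).

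Higher stretches were fewer. The 72 genes of MAP6D1 to LMLN on chromosome 3 had medians of 0.18, 0.20 and 0.24 in the pairs not used, with 30 called higher and 2 lower. The 63 genes of GTPBP4 to PDSS1 on chromosome 10 had 0.090, 0.024 and 0.025, so its median was near 0 in 2 of the 3 pairs not used to find it. Over whole chromosomes, 40.5% of tested genes on chromosome 5 were lower and 7.44% higher, whereas 28.4% on chromosome 16 were higher and 7.23% lower. Away from the 4 lower stretches, 20.5% of 10283 genes were higher and 12.5% lower. DNA copy number was not measured, and its part in these stretches was not tested. CD74, which rose, lies in the chromosome 5 stretch, as do the lower genes MZB1, ELL2, DUSP1 and TNFAIP8.

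**Figure D5:**
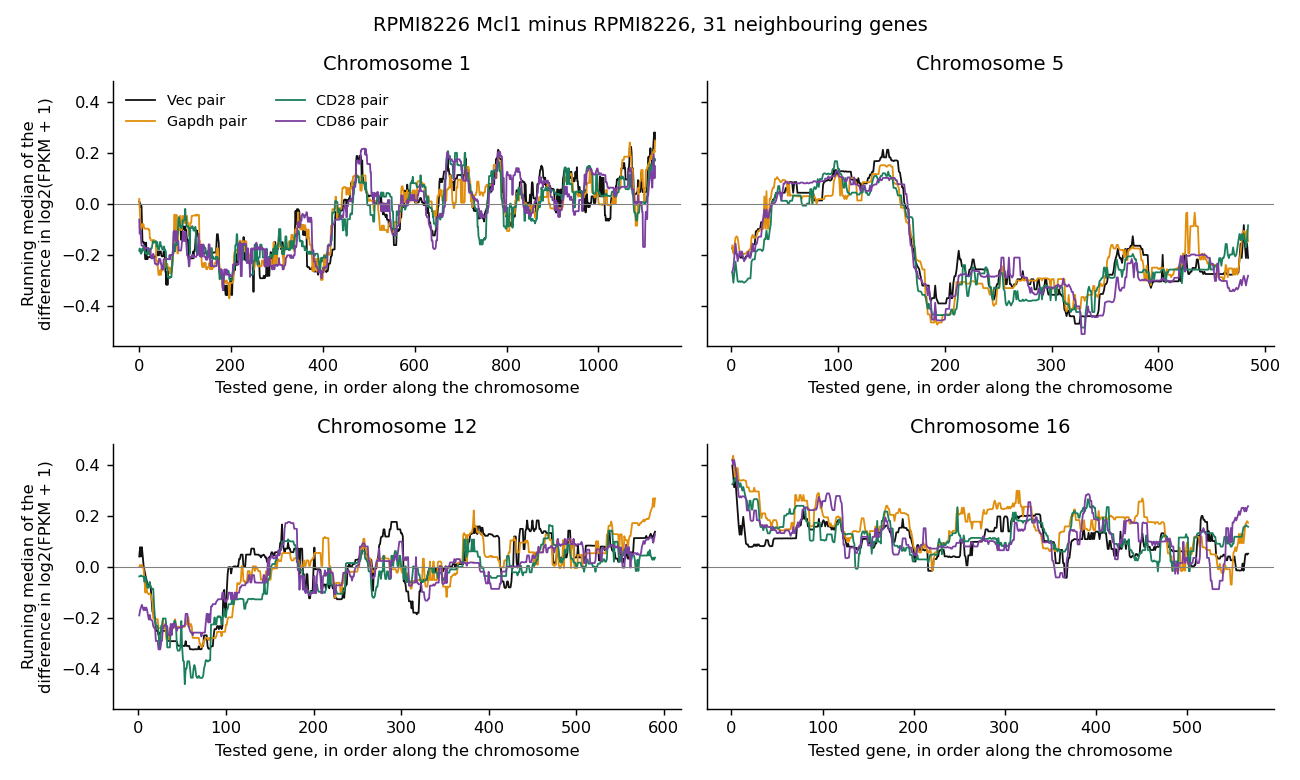
Running median over 31 neighbouring tested genes of the difference in log2(FPKM + 1), RPMI8226 Mcl1 minus RPMI8226, by gene order on chromosomes 1, 5, 12 and 16, 1 line per shRNA pair. The 4 lines fall together below 0 over the first part of chromosomes 1 and 12 and the last part of chromosome 5, and stay mostly above 0 on chromosome 16.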

How the data were processed

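The deposited table holds gene-level FPKM values for 16 libraries, which the authors made, with exon lengths. The submitters' processing notes list edgeR (3.12.1), R (3.2.2), TopHat2 (2.0.13) and Picard as tools, and hg19, GRCh37 and mm9 as builds, with no role or order for any of them. The authors' deposited columns of their own comparisons (log2 fold changes, p-values and scores) were not used for any value here. FPKM times exon length gave whole reads (100% of values within 0.02 of a read), from which the depth came. Even numbers prevailed among low reads, so mates were counted separately.

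Values were tested as log2(FPKM + 1) with limma 3.58.1 (R 4.3.3; linear model with background and shRNA as terms, eBayes with a mean trend, 3 residual degrees of freedom) over the 11024 genes whose mean in the 8 libraries reached 1 FPKM. P-values were adjusted by Benjamini-Hochberg over all of them, with a threshold of 0.05. A gene averaging under 1 FPKM in 1 background reached the filter only through the other, as ITGAM, CD72, CD276 and CIITA did through the Mcl1 line. The shRNA term follows the shared label. Across genes, deviations from the group means had an r of 0.131 to 0.371 between libraries of the same shRNA. Between libraries of different shRNAs r was -0.238 to 0.0827. Centring on group means pushes the second range down when the first is above 0, so their contrast is not independent support for the term. The step was checked on simulated data.

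The comparison, its gene lists and its alternatives were chosen with earlier results of these data known. Genes named whatever their result were MCL1, other BCL2 family members, the shRNA targets and the plasma cell and RPMI8226 genes IRF4, MAF, MYC, PRDM1, XBP1, SDC1, TNFRSF17, ITGB7 and CCND2. Others were the 12 largest rises and falls, up to 4 members of each list that were called, had one sign in all 4 pairs and differed most, and genes on in 1 background only. Further list members and PLEKHO1 were chosen after their values were seen. Promoter windows come from RefSeq (GRCh38.p14). Alternatives were another pseudocount, other filters, no shRNA term, rescaling by the median of ratios, limma-voom on recovered reads, all 16 libraries in one fit, no mean trend, each shRNA pair left out, and only the Vec and Gapdh pairs.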

Additional observations from a re-analysis of the deposited data

Results flagged for a closer look

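Sets of 4 libraries were examined, 389 in all, each a named gene within a background. In 36 of them 1 library lay far from the other 3 relative to the range of the 4. The cutoff would mark about 1 set in 20 by chance if the 4 were like replicates with normally distributed values. They carry different shRNAs, and the marked sets include GAPDH with its own shRNA and sets resting on a few reads. That rate is therefore no baseline here, and whether 36 exceeds chance was not tested. The values are FPKM and no explanation was tested.

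Of these, 18 were CD28 shRNA libraries. In the Mcl1 line with CD28 shRNA, NFKB2 (34.6), CXCL10 (48.2), CR2 (6.34), CD59 (45.0), CCR10 (0.685) and RNF182 (0.225, 4 reads) were above the other 3 libraries, and BCL2L1 (49.8), CDKN1A (5.83), IL27RA (7.38), RAMP3 (2.85) and RPS14 (508) were below them. In parental cells with CD28 shRNA, the interferon-induced genes IFI27 (10.9) and OAS2 (14.02), with BID (9.84), CDKN1C (11.4), HLA-DMA (0.318) and BCL2L10 (0.402, 2 reads), were above the others and BMP6 (2.13) below.

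GAPDH with its own shRNA was low in both backgrounds, at 209.5 in the Mcl1 line and 402.3 in parental cells. With Gapdh shRNA, BIRC5 (49.3) was low in the Mcl1 line. CAD (31.2), CDH2 (21.3) and JUN (4.42) were low in parental cells with Gapdh shRNA, while ITGAM (0.0916, 3 reads) and SFRP2 (0.161, 2 reads) were above 3 libraries at 0. With CD86 shRNA, BCL2L11 (40.5), ITGAL (2.07) and MS4A1 (0.451, 10 reads) were high in the Mcl1 line, and CCND2 (56.4) and HERPUD1 (66.5) were low. In parental cells with CD86 shRNA, RNF182 (9.19) and RRM2 (61.5) were high and DEPTOR (90.2) was low. With Vec, SESN2 (18.5) was high in the Mcl1 line and BCL2L14 (0.102, 2 reads) was above 0 in parental cells.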

How the results depend on the processing

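Over the 13 alternatives fitted, MCL1 stayed higher by 1.27 to 1.49 on the log2 scale, with an adjusted p of 1.44e-22 (limma-voom) to 7.76e-04 (no mean trend). The count of genes that differ was 2459 without the replicate block, that is, without the shRNA term (1394 higher, 1065 lower; 2449 of them shared with the 3793), and 2335 with only the Vec and Gapdh pairs (1331 higher, 1004 lower); the second fit has fewer samples, and the cause of the first was not tested. It was 2746 to 3202 with 1 pair left out (higher 1532 to 1821, lower 1189 to 1381), 4545 by limma-voom, 3750 after rescaling by the median of ratios (1844 higher, 1906 lower, with the median of all genes shifted by -0.031), and 3405 without the genes of the lower chromosome stretches, added after seeing the data. For KMS18 against MM.1s, 6327 genes differed without the block and 6124 to 6716 with 1 pair left out. The edgeR fit was not run, since the values are FPKM.

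Among all 11024 tested genes 3793 were called (34.4%), and 2459 without the block. Of 193 tested named genes 179 were called, 160 of them without each pair in turn, 143 without the block, 175 after rescaling and 178 by limma-voom. Many named genes were chosen because they were called, kept the same sign across pairs and differed most. The counts for named genes therefore follow in part from that choice and do not measure how stable calls are in general. Signs turned only for genes with no call: with 1 pair left out, BAK1 ran from -0.12 to 0.020, BAX from -0.071 to 0.000165, BCL2L1 from -0.074 to 0.059, CCND2 from -0.071 to 0.032 and PRDM1 from -0.068 to 0.089, and with only the Vec and Gapdh pairs BCL2L1 was 0.064 and CCND2 0.091. Genes on in 1 background only numbered 15 in the Mcl1 line and 29 in parental cells at 2 FPKM or more, and 2 and 3 where the other background had to be under 0.2 FPKM. The chromosome 5 stretch had a median of -0.37 to -0.28 over 14 settings. Depth limits genes of a few reads, such as KEL, SFRP2 and CD177 in parental cells. Their ratios are not given, and their log2 differences depend on the 1 added to FPKM.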
